A study of Mus musculus with 2 samples.

Results

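Clustered zinc finger genes of the mouse are described here by how open their promoters were in neonatal spleen. Members are protein-coding genes of GENCODE vM21 named Zfp followed by a number alone, whose most upstream transcription start site lies within 100 kb of that of another such gene. The rule used names and positions only, and it took 202 of 365 Zfp genes, out of 21938 protein-coding genes. The other 163 Zfp genes are called solitary below. The 202 members form 54 clusters, chains in which each start site lies within 100 kb of the next, and the median distance to the nearest other Zfp start site was 28.9 kb.

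Most clustered Zfp genes encode C2H2 zinc finger proteins, in which a row of finger domains contacts a DNA sequence. Many of them also carry a KRAB domain, which recruits the co-repressor TRIM28 (KAP1) and with it the H3K9 methyltransferase SETDB1 and HP1 proteins. The family has grown by tandem duplication, and its best studied proteins silence endogenous retroviruses and other transposable elements or protect imprinted loci.

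Accessibility was measured by DNase-seq, which maps where the nuclease DNase I cuts chromatin, in whole spleen of 4 day old male B6CASTF1/J mice, first-generation hybrids of C57BL/6J and CAST/EiJ. The labels give 1 group with 2 biological replicates and no other condition, so nothing is tested between conditions, and clustered genes are set beside solitary Zfp genes and all protein-coding genes as a description. Replicate 1 had 80323 peaks and 217159 footprints in the lists used, and replicate 2 had 88723 peaks and 252901 footprints. Signal is the value deposited for each peak, and neither its scale nor the reads behind it are known. Of the tissue markers, all 8 erythroid and 5 of 6 B cell genes had a promoter peak in both libraries, with 1 of 5 T cell, 1 of 5 myeloid and 3 of 5 endothelial and stromal genes. Of the genes of other organs, 0 of 4 hepatocyte, 1 of 4 pancreatic and 1 of 4 neuronal genes had one. Spleen is a mixture of cells, so few cells with an open promoter and a weakly open promoter in many cells cannot be told apart.

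The promoters on which the description turns are shown first, on GRCm38 (mm10), 5′ to 3′ on the strand of the gene. Each is the span of the strongest promoter peak over both libraries, and capitals mark bases inside footprints that overlapped in the 2 libraries. Overlapping footprints were joined to their outer ends, so a base in capitals can lie in a footprint of 1 library alone. Such joined stretches are called footprints of both libraries below. Footprints are the few bases within a peak that the nuclease cut less than their surroundings. Zfp809, which silences murine leukaemia virus in embryonic cells, is shown as the member with the highest mean signal over both libraries. Zfp865 is shown for footprints over known promoter sequences, and Zfp668 for a peak that also lies within 1 kb of the start of the divergent gene Zfp646. Zfp87 and Zfp455 are shown as the strongest and the weakest member of 1 array on chromosome 13.
Zfp809, chr9:22225581-22225740, plus strand: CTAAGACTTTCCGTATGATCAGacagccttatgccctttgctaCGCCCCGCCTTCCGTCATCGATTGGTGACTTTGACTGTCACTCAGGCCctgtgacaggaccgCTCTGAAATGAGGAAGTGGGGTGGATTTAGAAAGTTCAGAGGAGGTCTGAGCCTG
Zfp865, chr7:5020281-5020480, plus strand: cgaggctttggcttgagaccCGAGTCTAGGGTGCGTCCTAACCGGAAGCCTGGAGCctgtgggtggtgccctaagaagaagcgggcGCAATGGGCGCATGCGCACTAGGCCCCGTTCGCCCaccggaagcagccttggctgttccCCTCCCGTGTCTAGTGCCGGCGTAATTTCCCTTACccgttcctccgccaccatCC
Zfp668, chr7:127876781-127876960, minus strand: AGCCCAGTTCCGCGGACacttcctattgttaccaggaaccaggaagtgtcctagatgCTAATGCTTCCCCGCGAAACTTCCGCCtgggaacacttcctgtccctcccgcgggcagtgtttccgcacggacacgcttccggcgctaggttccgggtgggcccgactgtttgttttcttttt
Zfp87, chr13:67526101-67526280, minus strand: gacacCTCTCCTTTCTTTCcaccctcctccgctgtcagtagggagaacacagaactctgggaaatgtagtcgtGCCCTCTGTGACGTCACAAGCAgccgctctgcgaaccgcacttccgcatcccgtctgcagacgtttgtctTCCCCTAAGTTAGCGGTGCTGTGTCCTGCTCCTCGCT
Zfp455, chr13:67194581-67194810, plus strand: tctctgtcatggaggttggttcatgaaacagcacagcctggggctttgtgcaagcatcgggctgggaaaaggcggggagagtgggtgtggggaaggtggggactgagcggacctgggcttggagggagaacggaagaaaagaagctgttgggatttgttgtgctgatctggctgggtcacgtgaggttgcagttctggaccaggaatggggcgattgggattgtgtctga

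The Zfp809 peak of 160 bp held 3 footprints of both libraries, and 1 of them covers ATTGG, the CCAAT box bound by NF-Y read on the other strand. The 200 bp of Zfp865 held 4, and they cover CCGGAAG, the core of ETS factor sites, and, in the footprint that begins with GCAATG, the palindromic site of NRF1. In Zfp87 such a joined stretch covers TGACGT, the core of CREB and ATF sites. Whether the footprint of each library alone covers these letters was not counted. The 230 bp of Zfp455 held 0 footprints of both libraries. A match names letters and not the protein bound.

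A further pair is shown because its promoters had no peak at all. Zfp965 and Zfp968 are neighbours on chromosome 2, and the 120 bases around their start sites are identical. Capitals here mark CCAAT and CTTCCGG, which is CCGGAAG on the other strand.
Zfp965, chr2:175469925-175470044, plus strand: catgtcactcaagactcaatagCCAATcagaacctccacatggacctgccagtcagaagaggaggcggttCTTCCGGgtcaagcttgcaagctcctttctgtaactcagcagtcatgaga
Zfp968, chr2:175372376-175372495, plus strand: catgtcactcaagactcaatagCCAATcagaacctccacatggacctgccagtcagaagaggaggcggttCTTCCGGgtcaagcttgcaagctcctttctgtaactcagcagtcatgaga
Over the 2 kb around both start sites, 1973 of 1999 aligned bases were identical (98.7%), and 100% of the 31-base words in the promoter windows of each gene occur more than once in the genome. Zfp978 and Zfp979 on chromosome 4, which also had no peak, differ at 1 of 1993 aligned bases. How reads from such copies were placed is not given in the sources used here.

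A promoter is called open where a peak of each library lies within 1 kb of any annotated start site of the gene. By this rule 177 of 202 clustered Zfp genes were open (87.6%), against 132 of 163 solitary Zfp genes (81.0%) and 60.2% of all protein-coding genes. Replicate 1 had a peak at 178 clustered genes, against 62.4% of all protein-coding genes, and replicate 2 at 179, against 62.8%. With the shorter and stricter peak list of each library the count was 164 of 202 clustered (81.2%), 121 of 163 solitary (74.2%) and 54.8% of all protein-coding genes. The excess of clustered over solitary genes, 6.64 percentage points, depends on the distance that defines a cluster: it was 17.8 points with 50 kb and -0.837 points with 200 kb.

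The open share varied with spacing within the family. Of the 20 Zfp genes whose nearest other Zfp start site lies within 10 kb, 20 were open. Some pairs this close have the same strongest peak, as described below, so the 20 are not separate cases. The count was 81 of 84 between 10 and 30 kb, 47 of 52 between 30 and 50 kb, and 29 of 46 between 50 and 100 kb (63.0%). Just outside the rule, between 100 and 200 kb, 17 of 28 were open (60.7%), and beyond 200 kb 115 of 135 (85.2%). Genes of chromosomes 2 and 4 made up 17 of the 46 genes at 50 to 100 kb and 10 of the 28 at 100 to 200 kb. On the other chromosomes 26 of 29 and 16 of 18 of these genes were open. The members nearest to the limit were Zfp965 and Zfp968 at 97.5 kb and Zfp972 at 97.7 kb, all without a peak. Just outside lay Zfp72, Zfp825 and Zfp263 at 103 kb, all open, with mean signals of 0.784, 1.97 and 6.28.

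Signal went the other way from the open share: open clustered promoters were weaker. Their median signal was 3.08 in replicate 1 and 2.44 in replicate 2, against 6.58 and 5.17 at open solitary Zfp promoters and 6.38 and 5.24 at all open protein-coding promoters. As the median over genes of the mean of both libraries, with the SD between the 2 library medians, this was 2.66 ± 0.452 for clustered, 5.74 ± 0.995 for solitary and 5.84 ± 0.806 for all genes. These SDs include the difference between the libraries, which had the same direction in all 3 sets, so the gap between sets cannot be judged against them. The clustered median was the lowest of the 3 in each library. The strongest 25.0% of all open promoters, those above 11.3, held 15 of 177 clustered genes (8.47%) and 27 of 132 solitary ones (20.5%). The weakest 25.0%, at most 1.85, held 64 clustered genes (36.2%) and 29 solitary ones (22%). The ratio of the clustered to the solitary median was 0.463, and it stayed below 1 under every alternative run, reaching 0.720 with a cluster distance of 50 kb. A smaller subset that was not among these alternatives went the other way, as given below with CpG content.

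**Figure D1:**
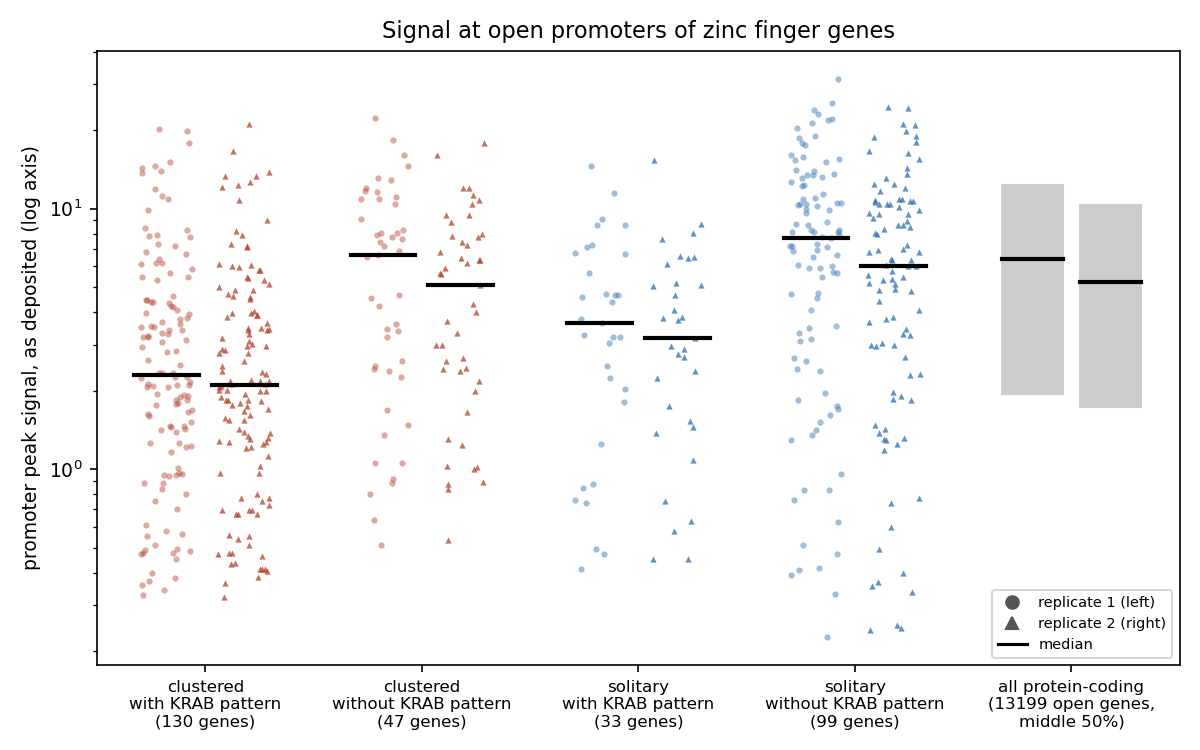
Promoter peak signal (log axis, as deposited) of open Zfp genes, split by cluster membership and by a KRAB letter pattern, with replicate 1 as circles on the left and replicate 2 as triangles on the right; black bars are medians and grey boxes span the middle 50% of all open protein-coding genes. Clustered genes with the pattern have medians of 2.30 and 2.10, and those without it 6.63 and 5.11.

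Median signal was lower in open genes whose protein matched a letter pattern of the KRAB box. The pattern, written after values had been seen and searched in the translated longest coding sequence, was found in 151 of 202 clustered and 41 of 163 solitary genes. Of the 64 clustered genes in the weakest 25.0%, 54 had it, but only 9 of the 29 solitary ones did. That weakest part held 41.5% of open clustered genes with the pattern and 21.3% of those without it. Among open solitary genes the shares were 27.3% and 20.2%. The pattern misses some genes known to have the domain, Zfp57 among them. Open clustered genes with the pattern had a median of 2.18 and those without it 6.09; open solitary genes had 3.31 with it and 6.75 without it. The open share itself differed less: 130 of 151 clustered genes with the pattern (86.1%) and 47 of 51 without it (92.2%). Clustered genes also had more fingers, with a median of 11.5 per protein against 9 in solitary Zfp genes, but among genes with the pattern the median was 12 in both sets.

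By the mean of both libraries, the 10 strongest clustered promoters were those of Zfp809, Zfp672, Zfp868, Zfp865, Zfp688, Zfp78, Zfp961, Zfp446, Zfp398 and Zfp963. Signals of single genes are given for replicate 1 and then for replicate 2. Zfp809 had a signal of 19.9 in replicate 1 and 21.1 in replicate 2, above 95.8% of all open promoters. Zfp672 had 22.2 and 17.8, and Zfp868 had 20.2 and 16.6. These sat at the top of the clustered genes' range in both libraries, and Zfp809 stood beside a weak neighbour: in its cluster Zfp872 had a peak in replicate 1 alone, at 0.344. Counted from the most upstream start site alone, the mean signal of Zfp672 over both libraries was 6.03. Its place among the 10 strongest thus rests on a peak near another of its annotated start sites. Zfp809 and Zfp868 kept their signals under that rule. The promoter windows of Zfp672 also overlap those of another protein-coding gene. Among solitary genes Zfp654 was strongest, with 31.5 and 24.5, followed by Zfp143, a transcription factor of many promoters and small nuclear RNA genes, with 22.1 and 24.4.

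Members with a studied target spread over the whole range. Zfp568, which represses a placental transcript of Igf2, had 7.18 and 6.14. Zfp445, which protects imprinted loci together with the solitary gene Zfp57, had 3.51 and 2.89. Zfp57 itself, best known from oocytes and embryonic stem cells, had a weak peak at 0.392 and 0.241. It had none in the shorter peak list and none within 1 kb of its most upstream start site. Zfp708, whose protein binds a class of endogenous retroviral repeats, had 1.80 and 1.27, but no peak within 1 kb of its most upstream start site. Zfp819, known from embryonic stem and germ cells, had 0.473 and 0.466. Zfp42 (Rex1), a solitary marker gene of pluripotent cells, had no peak in either library.

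The 13 clusters of 5 or more members, 99 genes in all, differed from each other more in signal than in the number open. The largest, 15 genes from Zfp84 to Zfp146 on chromosome 7, was open throughout with a median signal of 4.24 in replicate 1 and 3.18 in replicate 2. Its members ran from Zfp27, with 0.919 and 0.895, to Zfp566, with 10.9 and 9.05. The next, 14 genes from Zfp712 to Zfp748 on chromosome 13, was open throughout as well but weaker, with medians of 1.79 and 1.69. There Zfp87 had 5.32 and 5.39 and Zfp455 had 0.328 and 0.413. The neighbouring 5 genes from Zfp738 to Zfp273 were weaker again, with medians of 0.968 and 0.773, and Zfp65 at their low end had 0.382 and 0.323. Neither Zfp455 nor Zfp65 had a peak in the shorter and stricter list. Of the 39 genes in clusters of 10 or more 38 were open, and 33 with that list.

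Other arrays of chromosome 7 stood at either end. The 6 genes from Zfp628 to Zfp580, none with the KRAB pattern, had medians of 11.2 and 9.13, and the 5 from Zfp768 to Zfp689, 4 of them with the pattern, had 9.14 and 7.12. In the 10 genes from Zfp180 to Zfp94, 9 of them with the pattern, the medians were 0.707 and 0.535. In that array Zfp180 reached 7.94 and 6.46 and Zfp111 had a peak in replicate 2 alone, at 0.388. The 7 genes from Zfp786 to Zfp746 on chromosome 6 were all open with medians of 11.2 and 8.18, and 4 of them had the pattern. A KRAB pattern thus went with both strong and weak arrays.

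**Figure D2:**
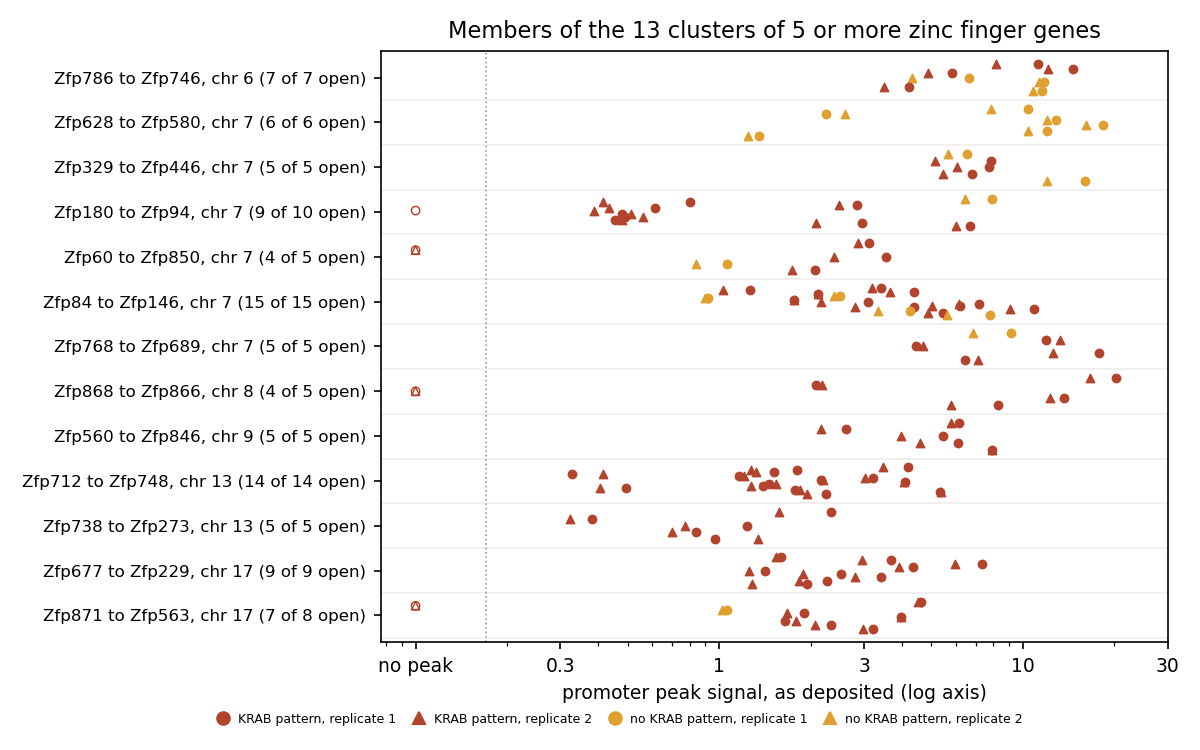
Promoter peak signal (log axis, as deposited) of every member of the 13 clusters of 5 or more genes, 1 row per cluster with its members in chromosome order from top to bottom; circles are replicate 1, triangles replicate 2, dark red marks genes with the KRAB pattern, and open symbols left of the dotted line mark libraries with no peak. The arrays on chromosome 13 lie mostly below 3, and the array of chromosome 6 between 3 and 15.

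Chromosomes 9 and 17 held arrays between these. The 5 genes from Zfp560 to Zfp846 on chromosome 9 had medians of 6.11 and 4.59, all with the pattern. The 9 from Zfp677 to Zfp229 on chromosome 17 had 2.52 and 1.89, where Zfp51 was strongest with 7.31 and 5.96 and Zfp52 weakest with 1.41 and 1.25. On chromosome 8, Zfp868, Zfp963 and Zfp866 stood beside Zfp869, which had no peak in either library. Of the 54 clusters, 37 had every member open (140 genes), 12 were mixed (50 genes) and 5 had none open (12 genes).

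The closed members lay mainly on chromosomes 2 and 4. There were 25 closed clustered genes, 22 without a peak in either library and 3 with a peak in 1 library (4.85% of all protein-coding genes had a peak in 1), namely Zfp111, Zfp872 and Zfp345, the last at 0.307 in replicate 2. On chromosome 4 only 2 of 12 members were open, and on chromosome 2 6 of 11; on the other chromosomes 169 of 179 were (94.4%). The 5 clusters with none open are Zfp968 with Zfp965 on chromosome 2 and 4 clusters on chromosome 4, which hold Zfp987, Zfp600, Zfp992, Zfp981, Zfp988, Zfp978, Zfp982, Zfp985, Zfp979 and Zfp534. In the same region of chromosome 4, Zfp984 and Zfp933 were open.

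These closed promoters consist largely of sequence that is repeated in the genome. Repeats were measured as the share of 31-base words of the promoter windows that occur more than once in GRCm38; the closed clustered genes had a median of 64.3%, and the open ones 4.5%. Among clustered genes with fewer than 10% repeated words 121 of 125 were open, against 119 of 133 solitary genes. With 10% or more it was 56 of 77 clustered and 13 of 30 solitary genes, and above 50% it was 10 of 26 clustered and 3 of 16 solitary genes. Bases with a cut rate FDR below 0.05 were listed in replicate 1 in the windows of 2 of the 22 members without a peak, Zfp947 with 6 bases and Zfp988 with 40, and in replicate 2 in 0 of them. A closed promoter and one whose reads could not be placed cannot be told apart in these windows.

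Of the 22 members without a peak, 3 had few repeated words. Zfp853 had 0.0% and a CpG ratio of 0.58, Zfp92, an X-linked gene, had 6.1%, and Zfp811 had 3.7%. These were chosen after their values were seen. For them most of the window sequence is unique, and neither library had a footprint or a base listed below that FDR.

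**Figure D3:**
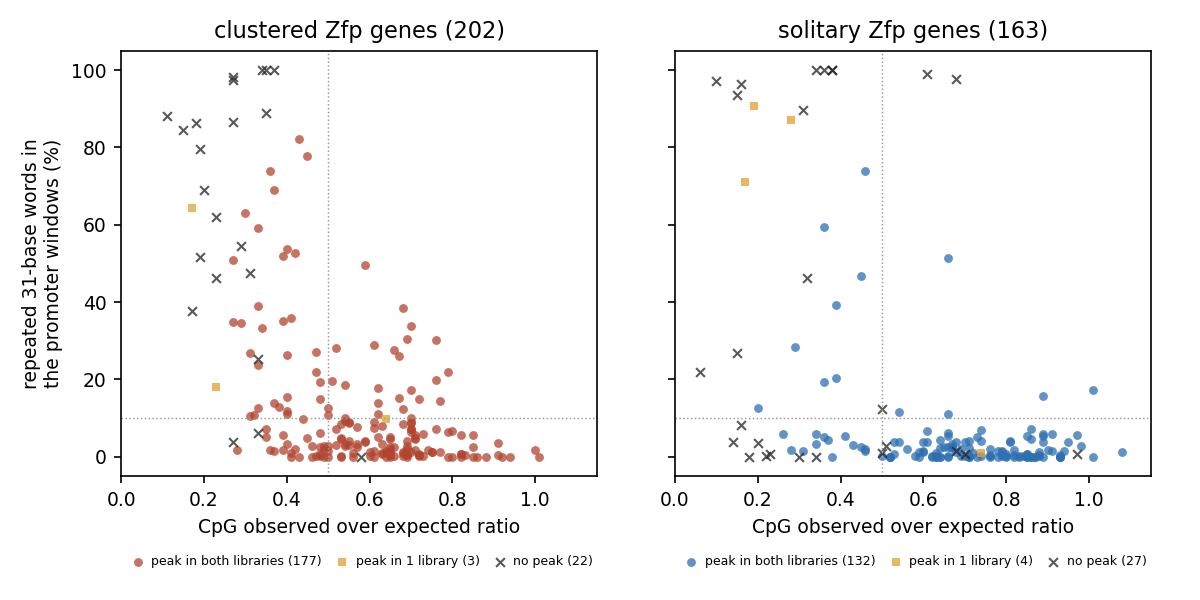
Repeated 31-base words in the promoter windows (%, vertical) against the CpG observed over expected ratio (horizontal) for clustered Zfp genes on the left and solitary Zfp genes on the right; dotted lines mark 10% and 0.5. Of the 25 clustered genes that were not open, 23 lie left of 0.5 and 21 above 10%.

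CpG content separated the promoters in the same way. The ratio of observed to expected CpG in the 1 kb around the most upstream start had a median of 0.55 in clustered and 0.66 in solitary Zfp genes, against 0.57 in all protein-coding genes. With a ratio of at least 0.5, 120 of 122 clustered genes were open (98.4%), against 110 of 118 solitary genes (93.2%) and 89.7% of all such genes. Below 0.5, 57 of 80 clustered genes were open (71.2%), against 22 of 45 solitary genes (48.9%) and 23.8% of all such genes. CpG-poor clustered genes with few repeated words were open in 26 of 28 cases, and solitary ones in 14 of 23. The arrays of chromosome 13 belong here: 19 of their 21 genes were CpG-poor and all 21 were open, with a median signal of 1.53. That count rests on the longer peak list, and Zfp455 and Zfp65 had no peak in the shorter one.

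The lower signal of clustered genes held within CpG-rich promoters. There the open clustered genes had medians of 4.21 and 3.66, against 7.29 and 6.06 for solitary and 7.74 and 6.32 for all protein-coding genes. Within clustered CpG-rich genes the median of both libraries was 3.35 with the KRAB pattern and 6.70 without it, and within solitary ones 4.66 and 7.29. At CpG-poor promoters the groups lay closer, with 1.46 and 1.27 for clustered, 1.83 and 1.68 for solitary and 1.54 and 1.40 for all protein-coding genes. Among CpG-poor genes with fewer than 10% repeated words the order was reversed. There 26 open clustered genes had medians of 2.20 and 2.05 and 14 open solitary genes 1.61 and 1.23. CpG-poor genes with 10% or more had 1.16 and 0.773 if clustered and 2.50 and 2.34 if solitary. With genes whose windows meet no other protein-coding gene's windows the ratio of the clustered to the solitary median was 0.585.

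Neighbouring members can have the same strongest peak. The start sites of Zfp944 and Zfp758 lie 53 bp apart on opposite strands, and both genes have the same strongest peak. Zfp934 and Zfp935 also have 1 strongest peak in common, as do Zfp942 and Zfp943, and Zfp646 and Zfp668. The most upstream start sites of Zfp646 and Zfp668 lie 0.873 kb apart, and their peak, printed above, lies at the start of Zfp668. It counts for Zfp646 through the window of 1 kb, so 1 promoter for both genes is not shown. The shared peak of Zfp646 and Zfp668 had 8.05 in replicate 1 and 6.36 in replicate 2. Promoter windows of 20 clustered genes overlap those of another protein-coding gene, and all 20 were open, as were 19 of 19 such solitary genes. The 49 other protein-coding genes that start inside the spans of the clusters were open in 30 cases (61.2%), with a median signal of 5.25.

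Peaks of clustered genes sat close to their start sites. The midpoint of the strongest peak lay within 100 bp of a start site for 75.1% of open clustered genes in replicate 1 and 74.0% in replicate 2, against 64.4% and 63.6% for solitary Zfp genes and 66.1% and 65.2% for all protein-coding genes. Their median width was 180 bp in replicate 1 and 200 bp in replicate 2. Clustered genes had a median of 5 and 5.50 footprints in the windows, against 6 and 7 in solitary Zfp genes and 4 and 4 in all protein-coding genes. Among open genes the order differs: clustered genes, with 5 and 6, lay below both solitary Zfp genes, with 8 and 9, and all protein-coding genes, with 7 and 8. With clusters built at 50 kb, clustered and solitary genes both had a median of 5.50 over the libraries. The members with the most footprints were Zfp668 with 23 and 25, Zfp672 with 21 and 29, Zfp866 with 22 and 20, Zfp524 with 19 and 25, and Zfp78 with 19 and 17.

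Sequence matches were counted on both strands in the 1 kb around the most upstream start site. The ETS core CCGGAAG was found in 38.6% of clustered genes, against 32.5% of solitary and 19.5% of all protein-coding genes. Among CpG-rich genes the ETS core was in 41.0% of clustered, 31.4% of solitary and 29.9% of all, and the GC box GGGCGG in 76.2%, 92.4% and 90.7%. Over genes of any CpG ratio the GC box, bound by SP and KLF factors, was in 62.9% of clustered, 77.9% of solitary and 61.6% of all genes. AGGGGGCG, part of the CTCF site, was in 7.92% of clustered, 19% of solitary and 14.2% of all genes. CCAAT was in 71.8% of clustered, 63.8% of solitary and 70.3% of all genes. Within the clustered set it was in 68.4% of open genes and in 24 of the 25 without a peak in both libraries. Those 25 had a median of 64.3% repeated words and include near copies of each other, so the 24 are not separate cases. In the 683 footprints of both libraries at clustered genes, widened by 5 bp on each side, the GC box was in 15.4%, against 22.1% at solitary and 23.2% at all genes. The NRF1 site was in 4.10% of these footprints, against 2.80% at solitary and 2.75% at all genes. The ETS core was in 2.93%, against 2.67% and 2.45%, a smaller difference than in the 1 kb windows. CCAAT was in 4.54%, against 5.60% and 5.39%, and so was less frequent at clustered genes in footprints though not in the windows.

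While the peaks of chromosome 13 were being read, a sequence recurred that the motif list did not hold, the capitals of the lines below with any 2 bases between them. Its letters form the upstream part of the composite site known for ZNF143, the human counterpart of ZFP143. A match to these letters is not a match to the whole site. Because it was chosen after the sequences were seen, its counts are given as a description. It was present in 49 of 202 clustered genes (24.3%), against 9 of 163 solitary Zfp genes (5.52%) and 2.85% of all protein-coding genes. On chromosome 13 it was present in 16 of 21 members and on chromosome 7 in 24 of 71. Members of 1 array can be near copies, and Zfp429 and Zfp456 have the same bases at and around the match. The 49 genes are thus not separate cases. The matches of 12 members, chosen after their values were seen, are printed on the strand that carries the motif, with its fixed letters in capitals, on GRCm38. All 12 lie in the strongest peak of both libraries, and all but those of Zfp87 and Zfp738 overlap a footprint in both. They are thus not typical of the whole set, whose counts follow the lines.
Zfp87, chr13:67526207-67526231, plus strand: cacgACTACAttTCCCAgagttctg
Zfp58, chr13:67500538-67500562, plus strand: ccagACTACAatTCCCAcaagtctg
Zfp595, chr13:67332596-67332620, plus strand: agggACTACAttTCCCAcaagtcag
Zfp953, chr13:67360632-67360656, plus strand: ccggACTACAttTCCCAcaaatcag
Zfp493, chr13:67779665-67779689, minus strand: caagACTACAttTCCCAcaactcta
Zfp738, chr13:67683553-67683577, plus strand: cgggACTACActTCCCAcaagtcag
Zfp14, chr7:30051390-30051414, minus strand: atggACTACAttTCCCAcaggcctc
Zfp420, chr7:29859916-29859940, plus strand: ttggACTACAttTCCCAgagccacc
Zfp790, chr7:29815959-29815983, minus strand: ttgaACTACAttTCCCAgaatacct
Zfp180, chr7:24081865-24081889, minus strand: tggaACTACAatTCCCAgaactctc
Zfp235, chr7:24134129-24134153, minus strand: tggaACTACAatTCCCAgaatgcgt
Zfp239, chr6:117863061-117863085, minus strand: tcgaACTACAagTCCCAgaaggctg

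In all the 49 genes held 56 matches, of which 39 lay within 100 bp of the most upstream start site. The strongest peak of both libraries covered 40 of the 56, and that of neither library covered 14, the match of Zfp455 among them. A footprint overlapped the match at 32 of 56 in replicate 1, at 36 in replicate 2 and at 26 in both. How often other stretches of open promoters meet a footprint was not counted. Of the 49 genes 48 were open, against 87.6% of all clustered genes, and the exception is Zfp992 on chromosome 4. Of all 625 protein-coding genes with these letters 607 were open, against 60.2% of all and 89.7% of CpG-rich ones. As the letters were noticed in peaks of chromosome 13, the share of clustered genes that hold them partly follows from how they were found. So do the peak, footprint and open counts of clustered genes. Open clustered genes with the match were not stronger than the others: their medians were 2.28 and 2.07, against 3.34 and 2.79 for open clustered genes without it. The ZFP143 site of the motif list, which begins with the last letters of this sequence and runs beyond them, was in 7.43% of clustered, 4.29% of solitary and 2.49% of all genes. Only 4 of the 56 matches were followed by ATG at the place where that site has it.

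**Figure D4:**
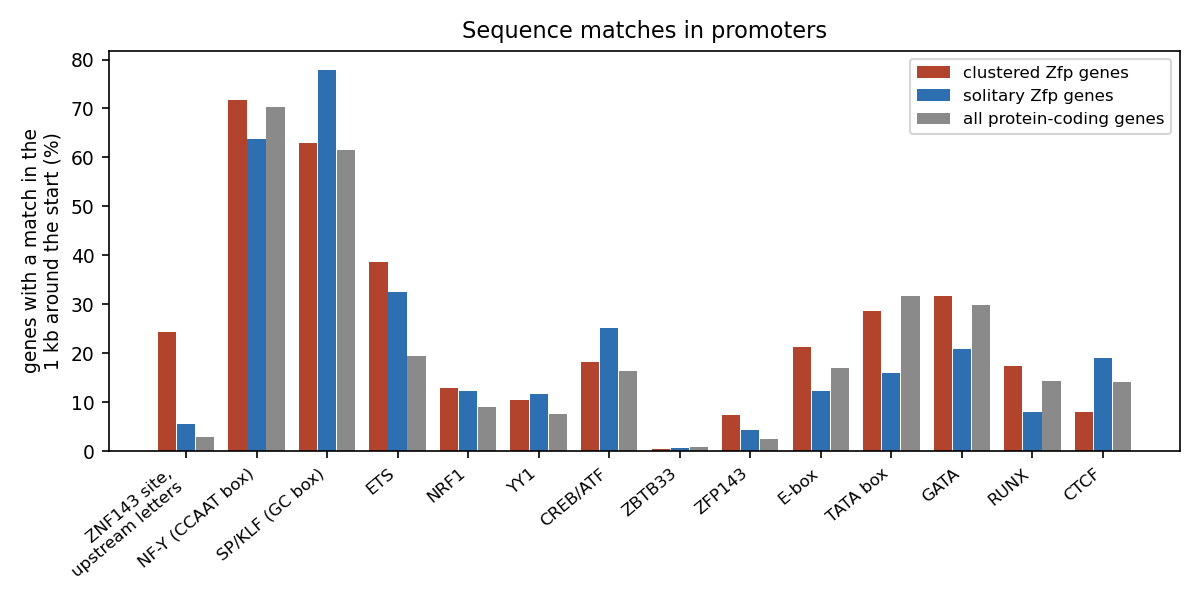
Share of genes (%, bars from 0) with a sequence match on either strand in the 1 kb around the most upstream start site, for clustered Zfp genes, solitary Zfp genes and all protein-coding genes from left to right in each group of bars. The upstream letters of the ZNF143 site, counted without the rest of that site, are in 24.3% of clustered, 5.52% of solitary and 2.85% of all genes.

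The libraries gave nearly the same order of members. Across the 177 open clustered genes, which share the same 2 libraries, Spearman's rho between replicate 1 and replicate 2 was 0.99. Replicate 1 was higher at 132 of them as deposited. Over all open protein-coding genes the median log2 ratio of replicate 1 to replicate 2 was 0.24. It was 0.25 at CpG-rich and 0.17 at CpG-poor promoters, and its cause was not tested. After centring on that median 73 of 177 were higher in replicate 1, 166 lay within 0.5 of zero, and the SD was 0.26, the same as over all open genes. The clustered genes' median was 0.19 as deposited and -0.05 after centring. Among members above the median signal, Zfp82 was the furthest toward replicate 1, with 4.38 in replicate 1 and 2.80 in replicate 2, and Zfp747 the furthest toward replicate 2, with 11.9 and 13.3. The 10 open members whose windows hold more than 50% repeated words had a centred median of -0.40.

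**Figure D5:**
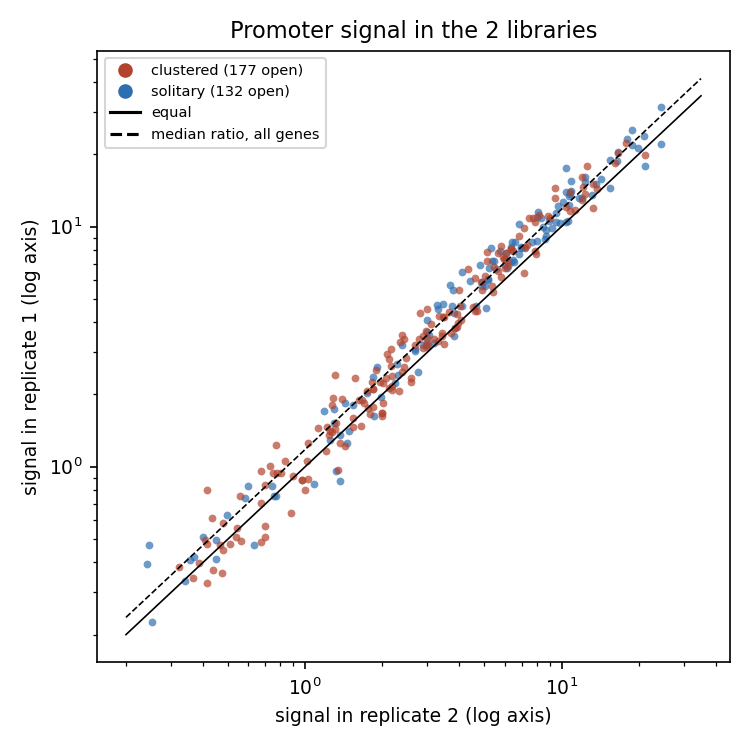
Promoter signal of open clustered (red) and solitary (blue) Zfp genes in replicate 1 (vertical) against replicate 2 (horizontal), both on log axes, with a solid line of equal values and a dashed line at 1.18, the median ratio over all open protein-coding genes. Points of both sets lie close to these lines over the whole range.

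The genes of proteins that carry out KRAB silencing had mostly open promoters. Of 29 listed partners 28 were open (96.6%), against 87.6% of clustered Zfp genes, 60.2% of all protein-coding genes and 89.7% of CpG-rich ones. The median CpG ratio of the list was 0.86, and its open genes had a median signal of 11.2 over both libraries. Open clustered Zfp genes had 2.66, all open protein-coding genes 5.84 and CpG-rich open ones 7.05. Trim28 itself had 10.1 in replicate 1 and 8.73 in replicate 2, and Setdb1 had 12.9 and 9.66. Morc3, which takes part in the silencing of endogenous retroviruses, was strongest with 26 and 27.2, followed by Daxx, a histone H3.3 chaperone, with 21.9 and 17.7. Atrx, the remodeller that works with DAXX, had 2.28 and 1.81. The 1 listed gene without a peak was Gm1043.

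Other gene families, including further tandem families, are given for scale. Of the zinc finger families, 37 of 40 Zbtb, 10 of 11 Zkscan and 7 of 16 Zscan genes were open. Genes named Gm or Rik that encode the KRAB pattern and at least 3 fingers were open in 21 of 40 cases (52.5%). Of the large tandem families of chemosensory receptors, 6 of 1093 Olfr, 1 of 207 Vmn1r and 0 of 120 Vmn2r genes were open.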

How the data were processed

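DNase-seq of spleen from 4 day old mice gave 2 libraries of 1 group, taken from the labels. For each library the authors deposited a longer and a shorter peak list on mm10, with a signal for each peak on a scale that is not stated, called on each library alone per the file listing. They also deposited footprints and stretches of bases with an FDR (an adjusted p-value) below 0.05, and every footprint carries the deposited value 0.01. The sources used here do not give the aligner, the peak caller, their versions or the placing of CAST/EiJ reads and of reads that match several places. No read counts are in these lists, so depth, counting intervals and floors are unknown.

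From these, peaks and footprints overlapping windows of 1 kb on either side of any of 41525 annotated start sites (GENCODE vM21, basic set, chromosomes 1 to 19, X and Y) by at least 1 base were assigned to genes. A gene's signal is its highest peak. The CpG ratio, GC content and sequence matches used GRCm38 and the 1 kb around the most upstream start. Repeated 31-base words were counted over the genome. The motif list of the text was searched on both strands. Fingers and the KRAB pattern were searched in the translated longest coding sequence. Overlaps, clustering and word counts were checked on planted data. Tools were Python 3.11.15, numpy 2.4.6, pandas 2.3.3, pysam 0.24.0, biopython 1.88, numba 0.67.0, matplotlib 3.10.9, bedtools 2.31.1 and samtools 1.23.1.

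The members and lists were chosen with earlier results of these data known. With 1 group no test was made, and genes are not replicates. Named were the 10 strongest clustered genes, up to 10 without a peak, those with a peak in 1 library, the 5 with the most footprints, the 3 largest library ratios in each direction among members above the median signal, the strongest and weakest member of clusters of 5 or more, the 5 strongest and up to 5 closed solitary genes, and a fixed set of studied genes. Other genes named were chosen after their values were seen. Alternatives were each library alone, the shorter list, windows of 500 and 2500 bp, the most upstream start alone, regions of both libraries, peaks above the library median, summed peaks, cluster distances of 50 and 200 kb, and subsets by repeated words, CpG and shared windows.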

Additional observations from a re-analysis of the deposited data

How the results depend on the processing

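The counts of open genes kept within 1.5 times of 177 clustered and 132 solitary genes under every alternative listed with the methods. The signal of clustered genes was lower than that of solitary genes under all of them. Of the 69 genes named by rule, 3 were no longer open with the shorter list and 2 with the most upstream start alone. Peaks above the library median left out 4, and windows of 2500 bp made 1 open. The open share of clustered minus solitary genes, 6.64 percentage points, changed sign with the distance: it was -0.837 with a cluster distance of 200 kb and 17.8 with 50 kb. It was 5.39 with windows of 500 bp, 5.91 with 2500 bp, 8.22 with the most upstream start alone, 7.87 with regions of both libraries, 4.46 with peaks above the library median, 7.33 with fewer than 10% repeated words, 5.14 with CpG-rich genes, 7.79 with unshared windows, 5.86 without chromosomes 2 and 4 (chosen after seeing the data), and 5.79 to 6.52 with 1 library. The median signal of open clustered genes, 2.66, was 3.30 with peaks above the median, 3.26 with 50 kb, 3.47 with few repeated words, 3.83 with CpG-rich genes and 3.20 with summed peaks. That of solitary genes, 5.74, was 4.53 with 50 kb and 7.57 with summed peaks. Their ratio, 0.463, was 0.483 with the shorter list, 0.484 with 500 bp, 0.480 with the upstream start, 0.449 with regions of both libraries, 0.495 with peaks above the median, 0.720 with 50 kb, 0.495 with 200 kb, 0.553 with few repeated words, 0.570 with CpG-rich genes, 0.585 with unshared windows, 0.422 with summed peaks, 0.539 without chromosomes 2 and 4, and 0.464 to 0.476 with 1 library. The median number of footprints per clustered gene, 5.25 over both libraries, was 6.50 with few repeated words, 6.50 with CpG-rich genes and 3 with footprints of both libraries. Per solitary gene, 6.50, it was 7.50 with 2500 bp, 5.50 with 50 kb, where clustered genes had 5.50 too and the difference was lost, 7.50 with 200 kb, 8.50 with few repeated words, 8.75 with CpG-rich genes and 4 with footprints of both libraries. The median log2 ratio of the libraries at clustered promoters, 0.19, was -0.05 after centring on all protein-coding genes, which is the construction of that scale. Subsets hold fewer genes by construction; for the other changes the cause was not tested. No paired analysis was possible because the labels give 1 group. Depth is unknown, so the limit it sets on weak promoters could not be given.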

Other observations

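Outside promoters, the spans of the clusters held 24.9 peaks per Mb in replicate 1 and 32.6 in replicate 2, against 20 and 23.1 over all chromosomes. Within the bodies of the clustered genes themselves the density was 15.4 and 25.7 peaks per Mb, against 30 and 33.1 in solitary Zfp genes and 27.4 and 30.8 in all protein-coding genes. The last coding exon, which holds the finger array in most of these genes, had 15 such peaks in each library over all clustered genes. This was 58.4 peaks per Mb in each library, above the density of the gene bodies. In solitary Zfp genes the last coding exon had 84.9 and 118 peaks per Mb. The density in last exons of all protein-coding genes was not counted.

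Much of the difference between the libraries came from 1 gene, Zfp866 on chromosome 8. Its body beyond 1 kb of the most upstream start held 4 peaks in replicate 1 and 33 in replicate 2, of which 32 had a signal below 0.5. In the 20 kb upstream, replicate 1 held 34 peaks and replicate 2 held 29, of which 32 and 27 had a signal below 0.5. Without Zfp866 the bodies of the clustered genes held 59 peaks in replicate 1 and 70 in replicate 2, against 60 and 100 with it. Leaving it out was chosen after seeing the data, and the cause of the run of weak peaks was not tested.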
